A study of Homo sapiens with 20 samples.

Results

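The genes described here are 5 genes for secreted proteins, STC2, STC1, VEGFA, GDF15 and ADM, followed across all 5 conditions of a study of the RNA-binding protein IGF2BP3. They are 5 of the 19962 rows of the gene count table and were picked by identifier: ENSG00000113739 (STC2), ENSG00000159167 (STC1), ENSG00000112715 (VEGFA), ENSG00000130513 (GDF15) and ENSG00000148926 (ADM). The choice was made with results of these data known, so their levels and fold changes are given as a description. The method was PAR-CLIP, which labels RNA in living cells with a photoreactive uridine (4-thiouridine), links it to bound protein with light at 365 nm, and sequences the RNA fragments that an antibody brings down. A linked base is read as C in place of T, and groups of reads that hold such conversions were called as clusters in each library.

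HCT116 cells, from a human colorectal carcinoma, carried the genotype Tet-OsTIR1-PURO in every group, and each group had 100 µM 4-thiouridine for 15 h. The tunicamycin (TM) set had 5 µg/mL TM for 1 h, the same dose for 4 h, or DMSO for 4 h, so the 1 h treatment had a 4 h vehicle as its control. TM blocks N-linked glycosylation and brings on the unfolded protein response. The other set had 250 µM arsenite for 2 h, an oxidative stress, or PBS for 2 h; the labels also write arsenate for this compound. Each condition had 3 anti-IGF2BP3 libraries and 1 library made with control IgG. Nothing in the labels says whether replicates came from separate cultures, so the spread between them may be technical. By library name, PBS and arsenite form the set S143, replicates 1 and 2 of DMSO and TM the set S142, and replicate 3 of DMSO and TM the set S141, so a PBS or arsenite level and a DMSO or TM level differ in set as well as in treatment, and these cannot be told apart.

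IGF2BP3 is an oncofetal RNA-binding protein that attaches to mature mRNAs, largely in their 3' untranslated regions, and influences their stability and translation. When misfolded proteins build up in the endoplasmic reticulum, the kinase PERK slows translation, the transcription factor ATF4 is made, and genes for amino acid supply, redox control and secreted signals are switched on. STC2 (stanniocalcin 2), GDF15 (growth differentiation factor 15, which acts on the brainstem receptor GFRAL) and VEGFA (the main growth factor of blood vessels) are well known outputs of this response, and VEGFA and ADM (adrenomedullin, a vasodilator peptide) are also classical targets of the hypoxia factor HIF. STC1 is the paralogue of STC2.

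The total gene count was 130478 to 1568406 in the 15 anti-IGF2BP3 libraries and 5981 to 17503 in the 5 IgG libraries. PBS replicate 2 was the shallowest library of the first kind. As a check of the labelled cell type, all 6 epithelial markers on a fixed list (EPCAM, KRT8, KRT18, KRT19, CDH1 and CLDN4) had clusters, and 0 of 7 markers of blood, fibroblast, endothelial and liver cells were assigned one. CD3E, COL1A1, COL3A1, PECAM1 and CDH5 had no usable strand, which assignment needs, so their lack of clusters is less sure than that of PTPRC and ALB.

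The clusters showed where on each transcript IGF2BP3 was linked. STC2 is on chromosome 5 at 173314723 to 173328414 (GRCh38, minus strand), and it held 145 clusters with 2978 reads, at least 1 in each of the 15 libraries. Clusters that overlapped between libraries were joined, which gave 16 regions. The 6 regions found in 5 or more libraries held 96.9% of the reads, and 99.3% of the reads lay within 3500 bases of the 3' end of the gene, whose whole span is 13692 bases. STC2 was therefore linked along a broad stretch at its 3' end and not at 1 site. Exons and untranslated regions are not assigned here, because the gene table used gives spans only.

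Region 14 was the one STC2 region seen in all 15 libraries, with 35.5% of the gene's reads, and regions 9 and 12 were seen in 14 and 13. The 30 bases that most libraries covered are shown for 5 of the 6 regions found in 5 or more libraries, as examples of recurrent contacts. They are in the sense of the transcript, written as DNA, with capitals marking CAT, a short motif often reported under IGF2BP sites.
STC2 region 14, chr5:173315353-173315382: tcgggtagatagCATttctatccCATccct
STC2 region 9, chr5:173317087-173317116: tatccagttatatctaCATatctgtCATct
STC2 region 12, chr5:173316075-173316104: cttatccgtcaactCATcagctcttcctca
STC2 region 5, chr5:173317768-173317797: atctatggaCATtccaaaaCATttacCATt
STC2 region 10, chr5:173316924-173316953: gcgaCATagcCATaCATctgactgcctgac
Each of these 5 windows held CAT, between 1 and 3 times. The window of region 6, seen in 4 libraries, held 0 CAT.

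VEGFA is on chromosome 6 at 43770211 to 43786487 and was read on the plus strand. It held 44 clusters with 692 reads in 14 of 15 libraries, PBS replicate 2 being the one without. A single region, region 5, carried 73.6% of the reads and lay 345 to 595 bases before the 3' end of the gene. The remaining reads fell in 4 regions farther upstream, between 1429 and 1911 bases from that end.
VEGFA region 5, chr6:43786021-43786050: attttgctaacactcagctctgccctcccc
VEGFA region 1, chr6:43784656-43784685: ctgccgccaccacacCATcacCATcgacag
The most covered window of region 5 held 0 CAT, while that of region 1, seen in 6 libraries, held 2.

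GDF15 is a short gene on chromosome 19, at 18386158 to 18389176 on the plus strand. It held 61 clusters with 1293 reads in 13 of 15 libraries, with no cluster in PBS replicate 2 or TM 1 h replicate 1, the shallowest libraries of their groups. Region 5, in the last 590 bases of the gene, carried 87.4% of the reads. A small region 1 began 9 bases after the start of the gene and carried 5.49%.
GDF15 region 5, chr19:18388819-18388848: gcgccctgctgcgtgcccgccagctacaat
GDF15 region 1, chr19:18386211-18386240: acggtgaatggctctcagatgctcctggtg
Both windows held 0 CAT, and the window of region 5 was 70.0% G or C, against 46.7% in the window of STC2 region 14.

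ADM, on chromosome 11 at 10305073 to 10307397, had 4 clusters with 22 reads in 4 libraries (PBS replicate 3, DMSO replicates 2 and 3, TM 1 h replicate 3). They formed 1 region 366 to 442 bases before the 3' end.
ADM region 1, chr11:10306980-10307009: atttctcacggcgtgtcaccccaccagggc
STC1 was assigned no cluster in any library. It had no usable strand, which assignment needs, so its lack of clusters is less sure. The IgG cluster lists held none in STC2, VEGFA, GDF15 or ADM. Those libraries were shallow, with 33 to 180 clusters each.

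**Figure D1:**
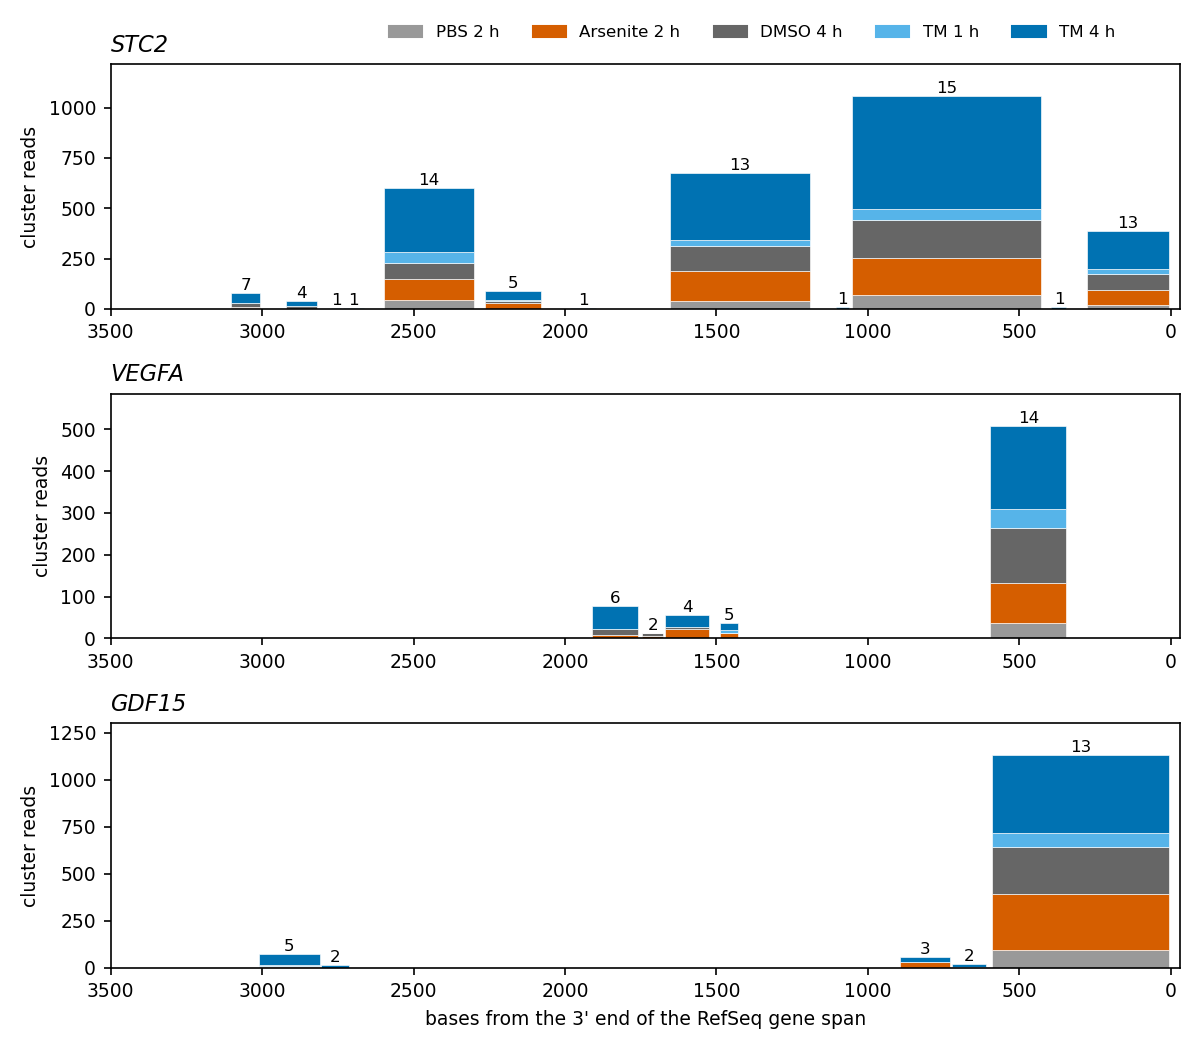
Reads in clusters of STC2, VEGFA and GDF15 (vertical axis) by distance in bases from the 3' end of the gene span (horizontal axis, 3' end at the right), summed over the 3 anti-IGF2BP3 libraries of each condition and stacked by colour; the number over a bar is the number of libraries with a cluster there. STC2 reads spread over 4 main regions, while region 5 of VEGFA and region 5 of GDF15 held 73.6% and 87.4% of the reads of those genes.

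The 3 genes also differed in the letters under their clusters. CAT occurred 2.83 times per 100 bases of cluster in STC2, 1.92 times in VEGFA and 1.03 times in GDF15, against 2.39 times over all 412123 clusters of the anti-IGF2BP3 libraries. In 30-base windows around the mode position listed for each cluster, CAT was present in 68 of 126 windows (54.0%) of STC2, 9 of 36 (25.0%) of VEGFA and 13 of 50 (26.0%) of GDF15, against 50.4% of 336940 windows overall. The mode position was a T in 31.8% of all windows, so it is in general not a converted base. The windows of 1 gene overlap between libraries and repeat the same sequence, so these shares are a description.

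ATTTA, the core of AU-rich elements that mark short-lived mRNAs, was in 13.5% of the STC2 windows and 14.0% of the GDF15 windows, against 4.29% overall. GGAC, the core of the sequence in which adenosine is methylated, was in 12.7%, 8.33% and 18.0% of the windows of STC2, VEGFA and GDF15, against 7.12%. TTTT was in 27.8% of the VEGFA windows and in 0 of 50 of GDF15, against 20.0%. Per 100 bases of whole clusters, VEGFA went the other way for both motifs, with GGAC 0.034 times against 0.243 over all clusters and TTTT 1.01 times against 1.32. In STC2 and GDF15, GGAC was at 0.437 and 0.513 and ATTTA at 0.556 and 0.611, where all clusters had 0.171 of ATTTA. Of STC2, VEGFA and GDF15, only GDF15 stood apart in base content, with 22.3% T and 58.8% G or C in its clusters. All clusters together had 31.6% T and 42.9% G or C. The 4 clusters of ADM had 18.9% T and 59.2% G or C. All motifs were searched on the transcript strand only, except in promoters.

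STC2 was recovered least after TM for 1 h and most after TM for 4 h. In CPM, counts scaled to a common library size with TMM factors, it was at 238.7, 253.9 and 259.2 in the DMSO libraries, at 222.1, 208.7 and 167.8 after TM for 1 h, and at 539.4, 822.1 and 577.8 after TM for 4 h. The 3 groups did not overlap, and the lowest 4 h library was above every other library of the study for this gene. With PBS it was at 292.5, 397.3 and 354.1, and with arsenite at 324.8, 314.8 and 375.3, so the arsenite values lay within the range of PBS.

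The means of STC2 were 646 ± 153 CPM after TM for 4 h, 348 ± 52.7 with PBS, 338 ± 32.4 with arsenite, 251 ± 10.6 with DMSO and 200 ± 28.3 after TM for 1 h (SD, n = 3 each). In that order the PBS and arsenite levels did not differ beyond their spread, and each other neighbouring pair was separated without overlap. The edgeR estimate for TM 4 h against DMSO was 2.55-fold (95% interval 2.22 to 2.94; log2 fold change 1.35, SE 0.10), the rank 22 of 8343 genes by fold. The 1 h estimate was a log2 fold change of -0.42 (SE 0.13), and the arsenite estimate 0.05 (SE 0.11).

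VEGFA too had its lowest mean after TM for 1 h and its highest after 4 h, with smaller steps and more overlap. It was at 74.1, 114.1 and 107.1 CPM with DMSO, at 97.2, 66.6 and 70.0 after TM for 1 h, and at 134.9, 193.1 and 147.5 after TM for 4 h. All 4 h libraries lay above all DMSO and 1 h libraries, while the 1 h and DMSO ranges overlapped. With PBS the gene was at 104.8, 71.5 and 147.8 and with arsenite at 119.3, 117.2 and 142.4, again overlapping.

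The means of VEGFA were 158 ± 30.6 CPM after TM for 4 h, 126 ± 14.0 with arsenite, 108 ± 38.2 with PBS, 98.4 ± 21.4 with DMSO and 77.9 ± 16.8 after TM for 1 h (SD, n = 3 each), and every neighbouring pair in that order overlapped. TM 4 h against DMSO gave 1.53-fold (1.26 to 1.86; log2 0.61, SE 0.14). TM 1 h gave a log2 fold change of -0.51 (SE 0.18) and arsenite one of 0.14 (SE 0.18). The PBS libraries held 43, 9 and 58 counts of VEGFA.

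GDF15 differed between DMSO and TM 1 h in all libraries. It was at 156.4, 122.7 and 132.8 CPM with DMSO and at 64.8, 73.3 and 104.5 after TM for 1 h, without overlap. After TM for 4 h it was at 152.8, 293.7 and 218.4, a range that started inside that of DMSO. With PBS it was at 199.9, 214.6 and 242.0 and with arsenite at 187.8, 214.4 and 209.4.

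The means of GDF15 were 222 ± 70.5 CPM after TM for 4 h, 219 ± 21.4 with PBS, 204 ± 14.1 with arsenite, 137 ± 17.3 with DMSO and 80.9 ± 20.9 after TM for 1 h (SD, n = 3 each). The upper 3 conditions overlapped each other. DMSO lay below PBS and arsenite without overlap but overlapped TM 4 h through replicate 1 of each, and TM 1 h lay below all other conditions. TM 4 h against DMSO gave 1.70-fold (1.41 to 2.05; log2 0.77, SE 0.14). TM 1 h gave a log2 fold change of -0.58 (SE 0.18) and arsenite one of -0.09 (SE 0.14).

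ADM, the peptide hormone of the group, was recovered at a low level. Its counts were 4, 12 and 24 with DMSO, 2, 7 and 16 after TM for 1 h and 11, 5 and 27 after TM for 4 h, or means of 14.4 ± 4.39, 13.4 ± 3.57 and 16.3 ± 9.06 CPM (SD, n = 3 each). These ranges overlapped. The fitted log2 fold change at 4 h was 0.00 with an interval of 0.598 to 1.68-fold, so a change within those bounds was not detectable at this depth.

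With PBS, ADM was at 17.1, 39.7 and 33.1 CPM from 7, 5 and 13 counts, and with arsenite at 12.7, 11.7 and 13.2 CPM from 5, 7 and 14 counts. The arsenite values were all below the PBS values, but they rest on few counts, and the share of all genes with such a gap was not counted. ADM did not pass the filter on low counts in that comparison and was not tested, so nothing is read from the gap. STC1 held too few counts for a level, 0 in PBS, 1 in arsenite, 1 in DMSO, 1 after TM for 1 h and 6 after TM for 4 h (1, 3 and 2 by library). It failed the filter in each fit, so 4 of the 5 genes were tested with TM and 3 with arsenite.

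**Figure D2:**
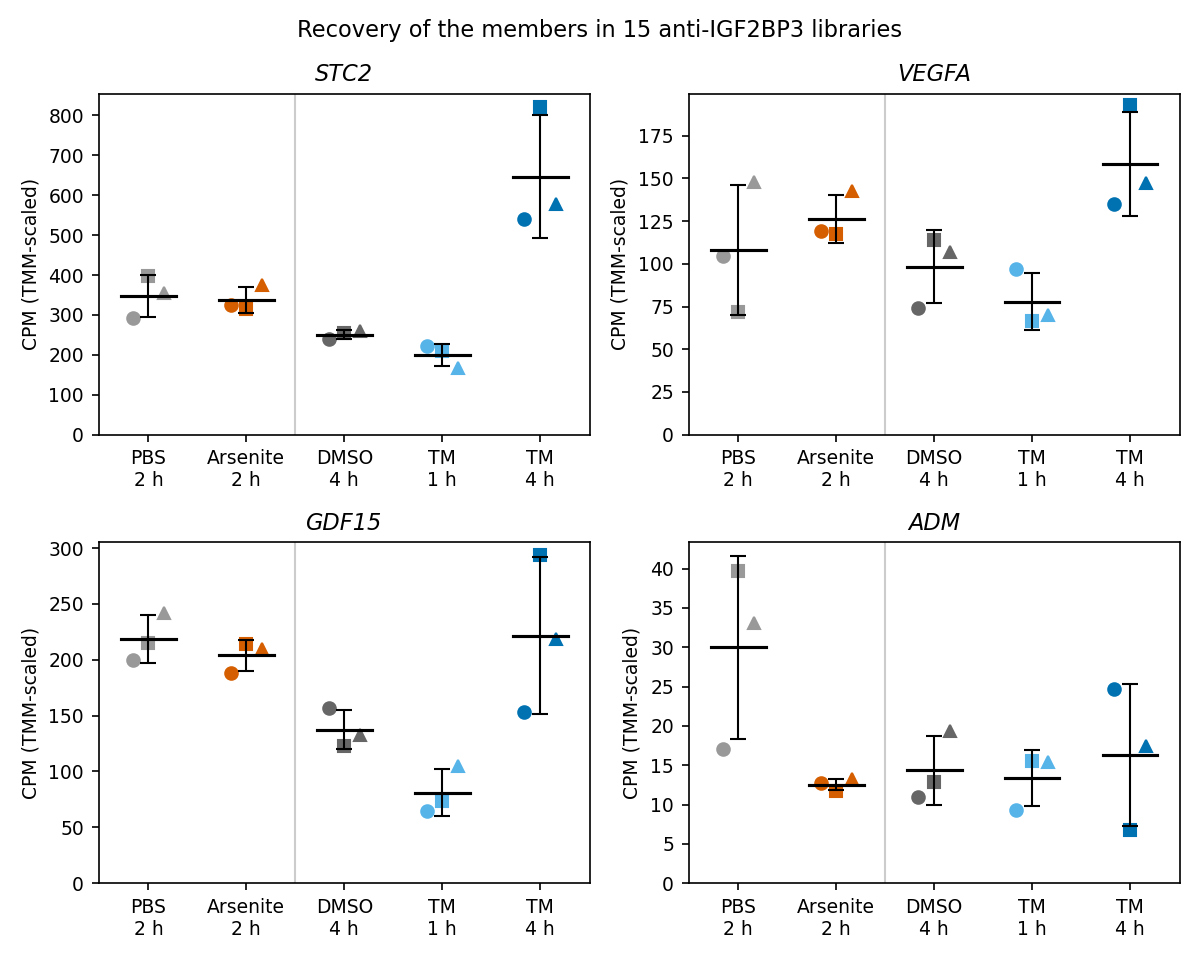
CPM of STC2, VEGFA, GDF15 and ADM in each anti-IGF2BP3 library by condition, with circles, squares and triangles for replicates 1, 2 and 3, and a horizontal line and bar for the mean and SD (n = 3); the vertical line parts the arsenite set from the TM set. STC2 was at 539.4 to 822.1 CPM after TM for 4 h, above all its other libraries, and GDF15 after TM for 4 h spread from 152.8 to 293.7.

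Against the background of all genes, TM for 1 h called 0 of the 4 tested members, by edgeR and by DESeq2, where edgeR called 0.551% of 8343 genes in either direction. The unadjusted p was under 0.05 for 3 of them (STC2, VEGFA and GDF15) and for 806 of the 8343 genes. STC2 and GDF15 were among the genes whose 1 h values all lay below those of DMSO, which held for 7.70% of genes. TM for 4 h called 3 of 4 higher (STC2, VEGFA and GDF15), where edgeR called 2.79% of genes higher. DESeq2 called STC2 and GDF15 and not VEGFA (adjusted p = 0.05565), and without TM 4 h replicate 2 edgeR did not call VEGFA either (adjusted p = 0.08522). STC2 and VEGFA did not overlap DMSO, as for 10.6% of genes. The members were chosen from these same values, so nothing is read from their counts.

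Between 1 h and 4 h of TM, STC2 differed by 1.78 on the log2 scale (SE 0.12), GDF15 by 1.34 (SE 0.16) and VEGFA by 1.12 (SE 0.17), all higher at 4 h, with ADM at 0.10 (SE 0.42). The fit called 3 of 4 higher, where 5.60% of genes were called higher. The groups did not overlap for those 3, as for 14.1% of genes. The comparisons of 1 h and of 4 h with DMSO share the DMSO libraries, so their values are not independent of each other.

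Arsenite called 0 of 3 members, by edgeR and by DESeq2 and with 0 at an unadjusted p under 0.05, where edgeR called 34.8% of 6642 genes in either direction. The fitted 95% intervals were 0.885 to 1.21-fold for STC2, 0.857 to 1.41-fold for VEGFA and 0.779 to 1.13-fold for GDF15. The difference of the 2 stress effects, arsenite against PBS minus TM 4 h against DMSO, was -1.32 (SE 0.17) for STC2, -0.87 (SE 0.20) for GDF15, -0.47 (SE 0.24) for VEGFA and -1.09 (SE 0.59) for ADM on the log2 scale. It was called lower for STC2 and GDF15, 2 of 4, where 9.74% of genes were called lower. A count in these libraries moves with the amount of an RNA and with how much of it IGF2BP3 holds, which cannot be told apart here.

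**Figure D3:**
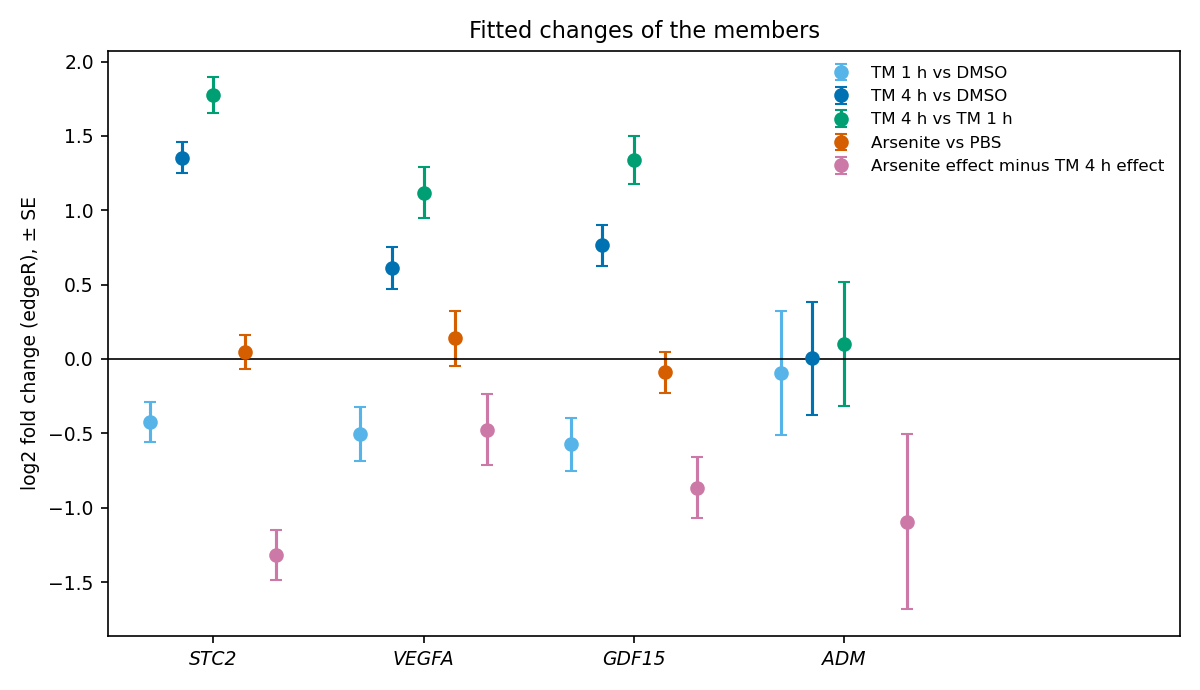
Log2 fold change from edgeR (points) with its SE (bars) for STC2, VEGFA, GDF15 and ADM in each comparison by colour; ADM was not tested for arsenite against PBS. The 4 h estimates of STC2 (1.35), GDF15 (0.77) and VEGFA (0.61) lay above 0, their 1 h estimates below 0, and their arsenite estimates between -0.09 and 0.14.

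Within the library sets, STC2 was higher after 4 h for each replicate number, with log2 differences from DMSO of 1.17 and 1.69 in set S142 and 1.15 in set S141. VEGFA gave 0.86, 0.75 and 0.46. GDF15 was uneven, at -0.03 for replicate 1, 1.25 for replicate 2 and 0.71 for replicate 3. At 1 h STC2 was lower by 0.10, 0.28 and 0.62 in size, GDF15 by 1.26, 0.74 and 0.34, and VEGFA was 0.39 higher in replicate 1 and 0.77 and 0.61 lower in the others.

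The IgG share of reads was above or below the anti-IGF2BP3 share depending on the condition, with wide counting intervals. STC2 took 7, 5, 3, 4 and 6 counts with IgG in PBS, arsenite, DMSO, TM 1 h and TM 4 h, and GDF15 took 8, 7, 0, 1 and 4. For STC2 with PBS this was 400 CPM of the library total (exact 95% binomial interval 161 to 824), against 323 in the pooled anti-IGF2BP3 libraries, and for TM 4 h it was 520 (191 to 1131) against 627. For TM 1 h it was 669 (182 to 1711) against 180.

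For GDF15 with arsenite the IgG share was 747 CPM (301 to 1539), whose lower bound is above the 199 of the anti-IGF2BP3 libraries. VEGFA had 3 IgG counts in all and ADM 1. These intervals cover counting error only and rest on 1 IgG library per condition. By library name, the IgG libraries of DMSO and TM belong to set S141, while the pooled anti-IGF2BP3 libraries are from S142 and S141. For GDF15 with DMSO, 0 of 7864 IgG counts allows up to 469 CPM by the same exact interval, against 129 with the anti-IGF2BP3 antibody. No condition showed STC2 or GDF15 above the IgG share beyond counting error. Their clusters, which need conversions, were listed with the anti-IGF2BP3 antibody and not with IgG. The IgG libraries were too shallow for this to be read. With the anti-IGF2BP3 antibody, PBS replicate 2 with 27 GDF15 counts and TM 1 h replicate 1 with 14 had no GDF15 cluster either.

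Cluster reads gave the same order for STC2. Summed per gene and tested across 2912 genes with a mean of at least 30 cluster reads, they gave a log2 fold change of 1.66 (SE 0.23) for TM 4 h against DMSO, called by edgeR, and 2.40 (SE 0.25) for 4 h against 1 h. For GDF15 these were 0.82 (SE 0.51) and 2.16 (SE 0.56), and for VEGFA 1.01 (SE 0.49) and 1.82 (SE 0.53), none of them called. Cluster reads were 12% of the gene count of STC2 in the shallow PBS replicate 2 and 94.2% in TM 4 h replicate 3, the deepest library, so they move with depth.

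The share of T-to-C conversions among conversion and non-conversion events in clusters does not enter the choice of the genes. GDF15 was higher on it than all clusters together. Its share was 12.7% ± 1.81 (SD, n = 13 libraries), against 8.11% ± 0.45 for all clusters of the same libraries, a mean excess of 4.58 percentage points that was positive in 13 of 13 libraries (2.13 to 9.04). An exact two-sided sign-flip permutation test over libraries gave p = 0.0002441, the smallest it can give, and 0.0007324 adjusted over 3 genes. The libraries read the same sites of GDF15, so this p covers only how repeatable the excess was between libraries. How many other genes had such an excess was not counted.

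STC2 and VEGFA did not show such an excess. STC2 differed from all clusters by -0.40 points (above in 3 of 15 libraries, adjusted p = 0.6528 by the same exact test) and VEGFA by -0.10 points (4 of 14, adjusted p = 0.8104, exact test). The T content of GDF15 clusters, 22.3% against 31.6%, moved with its higher share, and its part in it was not tested. ADM had a share of 12.6% in its 4 clusters pooled, from only 22 reads, and was not tested. The cluster lists hold no cluster with fewer than 2 conversion positions.

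Between conditions the conversion share was not found to change. With TM 4 h it was 13.04% ± 0.21 in GDF15 against 12.1% ± 1.68 with DMSO, 7.80% ± 0.34 against 7.44% ± 0.29 in STC2, and 8.84% ± 3.03 against 7.37% ± 0.57 in VEGFA (SD, n = 3 each). The 9 comparisons over genes and contrasts gave adjusted p of at least 0.7875 by exact permutation tests, which cannot go below a raw p of 0.1 here. With arsenite, VEGFA was at 8.61% ± 0.13 (n = 3) against 7.43% ± 0.76 with PBS (n = 2), without overlap.

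**Figure D4:**
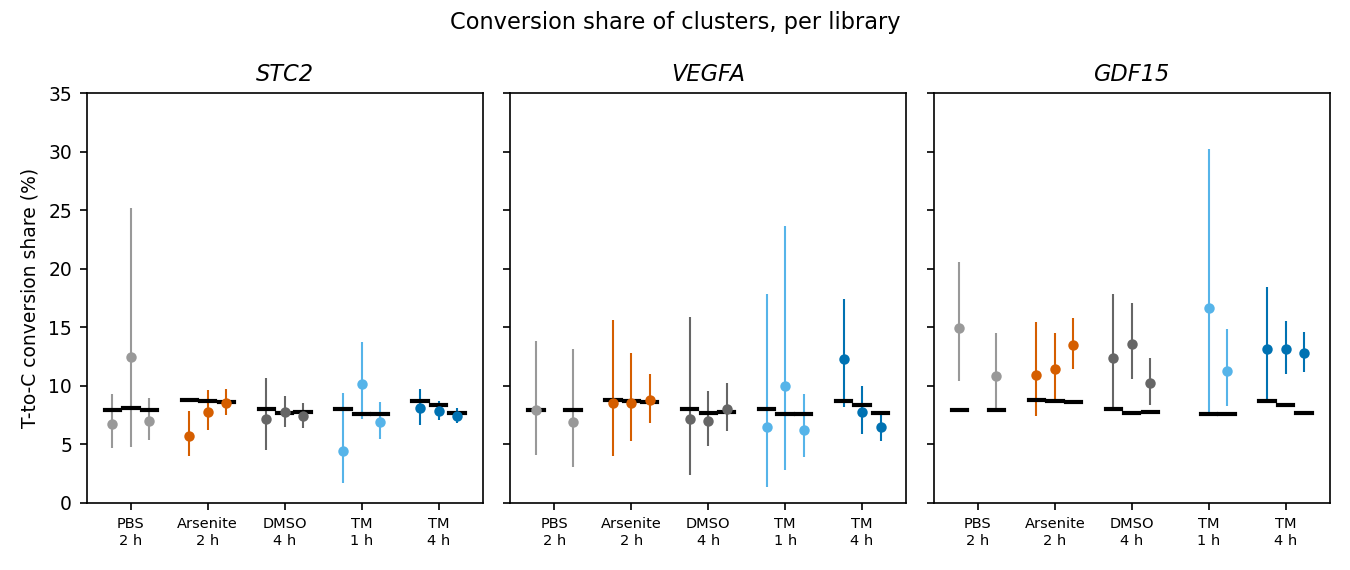
T-to-C conversion share (%, vertical axis) of the clusters of STC2, VEGFA and GDF15 in each anti-IGF2BP3 library by condition, with exact 95% binomial intervals for counting error, and black dashes for all clusters of the same library. The GDF15 point is above its dash in 13 of 13 libraries, and that of STC2 in 3 of 15.

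The main regions of each transcript were shared by the conditions. In 13 libraries with at least 20 STC2 cluster reads, region 14 held 18.2% to 45.0% of them, region 12 held 11.5% to 41.0% and region 9 held 14.9% to 28.7%. STC2 region 9 held 20.0% ± 0.86 with TM 4 h against 16.1% ± 1.29 with DMSO (SD, n = 3 each), and VEGFA region 5 held 67.8% ± 4.21 (n = 3) against 83.0% ± 9.84 (n = 2). With TM 1 h, STC2 region 9 held 27.98% ± 1.00 (n = 2). These 3 differences from DMSO each had an exact two-sided permutation p of 0.1, the smallest possible, and an adjusted p of 0.5 over 15 such tests.

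Regions found in 1 library only were 9 of the 16 of STC2, with 3 to 9 reads each, and 7 of them came from TM 4 h replicate 3, the deepest library. GDF15 region 1 at the start of the gene had 24 and 30 reads in TM 4 h replicates 2 and 3, 8 in DMSO replicate 3, 5 in TM 1 h replicate 3, 4 in arsenite replicate 3 and 0 in the others. Replicate 3 is the deepest library of the arsenite, DMSO, TM 1 h and TM 4 h groups, so depth moves with these regions, and its part was not tested.

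The promoters of STC2, GDF15 and ADM (250 bases before to 50 after the start, RefSeq, GRCh38.p14) were searched on both strands for response elements. The letters TGATGNAA and TTGCATCA, forms of the element bound by ATF4 with C/EBP proteins, were in 0 of 3, as was ACGTG, the core of the HIF element. They occur in 3.67%, 0.923% and 21.6% of 27305 promoters. CCAAT was in the STC2 and GDF15 windows and in 35.7% of promoters.

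Across the 15 libraries, log2 CPM of STC2 and VEGFA correlated with a Pearson r of 0.772, STC2 and GDF15 with 0.736, and VEGFA and GDF15 with 0.621, while ADM gave r of -0.194 to 0.164 with them. These points share conditions and depth and are a description. The gene most like STC2 by this measure, of 3338 with a mean count of at least 50, was ENSG00000101255 (r = 0.958), and the one most like GDF15 was ENSG00000099194 (r = 0.923); neither is paired with a name here. By cluster reads, the genes most like STC2 were DDIT4 (0.931), EIF3L (0.885) and OXA1L (0.852), and those most like GDF15 were RPL5 (0.992), RANBP2 (0.981) and ATP5F1B (0.980). The 2 libraries without a GDF15 cluster are among the points behind these last values.

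The other genes of the stress pathway were followed by their cluster reads, since the count table carries no symbols. On simulated cluster reads the test recovered 23% of 2-fold changes for TM 4 h and 42% for arsenite, so a gene that was not called may have changed. Of 28 other genes of the ATF4 and CHOP programme, 24 had a cluster and 17 could be tested with TM. A gene could pass the filter through its reads after treatment alone, so the tested genes may be selected toward higher levels after treatment. Without TM 4 h replicate 2 only 14 of the list could be tested, and without replicate 3 only 12. Counts and medians of the list at 4 h may therefore lean upward, by an amount that was not tested. At 4 h 5 of the 17 were called higher and 0 lower, where 0.309% of 2912 genes were called higher. Of the 17 estimates 15 were above 0, with a median log2 fold change of 1.20 against -0.00 for all genes. The 5 were DDIT3 (the transcription factor CHOP), DDIT4 (an inhibitor of mTORC1), HERPUD1 (of the degradation machinery of the endoplasmic reticulum), SESN2 (a stress sensor upstream of mTORC1) and TRIB3 (a pseudokinase that restrains ATF4).

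TRIB3 went from 286 ± 79.6 to 1074 ± 460 CPM of cluster reads (log2 1.94, SE 0.34, edgeR adjusted p = 0.03142), and SESN2 from 224 ± 19.4 to 639 ± 145 (log2 1.49, SE 0.24, adjusted p = 0.0193; SD, n = 3 each). DDIT3 had no cluster in any DMSO library and 152 to 254 CPM after TM for 4 h. It had none after TM for 1 h either. DDIT3 thus passed the filter through its TM 4 h reads alone, so its call is a description. HERPUD1 had 426 to 908 CPM after TM for 4 h and 0 to 18.9 with DMSO, and DDIT4 had 372 to 455 and 0 to 45.7. Neither had a cluster after TM for 1 h. HERPUD1 and DDIT4 thus passed the filter mainly through their TM 4 h reads, so their calls are a description too. Without 1 library the count of 5 fell to 1 (without TM 4 h replicate 1, TM 4 h replicate 2 or DMSO replicate 3), 2 (without DMSO replicate 1 or 2) or 3 (without TM 4 h replicate 3), and with library totals or DESeq2 size factors it was 3. At 1 h edgeR called 0 of 17 (3 at an unadjusted p under 0.05), with a median of -0.27, and 0% of all 2912 genes were called on this measure (81 at an unadjusted p under 0.05). Between 1 h and 4 h, 0.412% of genes were called higher, STC2 among them.

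With arsenite 11 genes of this programme could be tested, and ATF3, HERPUD1 and SESN2 were called higher, where 12.1% of 1802 genes were. HERPUD1 had 0 to 31.5 CPM of cluster reads with PBS and 423 to 629 with arsenite. It thus passed the filter mainly through its arsenite reads, so its call is a description. ATF3, a stress-induced repressor, went from 332 ± 293 to 3155 ± 753 CPM of cluster reads (log2 2.92, SE 0.47, edgeR adjusted p = 0.005793) and SESN2 from 216 ± 47.9 to 730 ± 117 (log2 1.78, SE 0.27, adjusted p = 0.004347; SD, n = 3 each). ATF4 itself was called lower, where 5.99% were, with ranges that overlapped (72.1 to 217 with arsenite and 168 to 694 with PBS). Without arsenite replicate 2 the count called higher was 1, and the call of ATF4 was lost without any 1 library other than PBS replicate 2. With the replicate number as a block, 0 of the 11 were called in either direction.

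Of 23 HIF targets and related genes, 17 had a cluster and 9 were tested with TM. At 4 h 0 were called in either direction (10 of all 2912 genes). An unadjusted p under 0.05 was found for 0 (101 of all 2912 genes). The median log2 fold change of these 9 was 0.13. Among them LDHA (lactate dehydrogenase) had 1707 CPM after TM for 4 h and 1546 with DMSO, and SLC2A1 (the glucose transporter GLUT1) 363 and 423. The ranges overlapped for both. With arsenite 0 of 7 were called (326 of all 1802 genes), with 2 at an unadjusted p under 0.05 (587 of all 1802 genes). The median log2 fold change of the 7 was -0.42, against 0.24 for all genes. Without PBS replicate 2 the calls were 1 higher and 1 lower.

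Of 42 other secreted growth factors and cytokines, 20 had a cluster and 5 could be tested in each set. With TM for 4 h 0 of 5 were called (10 of all 2912 genes), and their median log2 was -0.40. An unadjusted p under 0.05 was found for 0 of them (101 of all 2912 genes). Of the 5, the epidermal growth factor receptor ligand AREG was at 712 against 638 CPM of cluster reads. With arsenite, EREG, another ligand of that receptor, was lower at 4182 ± 850 against 6940 ± 178 CPM (log2 -0.79, SE 0.19, edgeR adjusted p = 0.02225, SD, n = 3 each), and CCN1, a matricellular protein, had 190 to 195 CPM with arsenite and no cluster with PBS. CCN1 thus passed the filter through its arsenite reads alone, so its call is a description. Without arsenite replicate 2 or 3 neither EREG nor CCN1 was called, without arsenite replicate 1 only EREG was, and without PBS replicate 1 or 3 only CCN1 was. With the replicate number as a block, neither was called. Of 18 receptors and processing enzymes of the members, such as the VEGF receptors, GFRAL and the ADM receptor CALCRL, clusters were assigned to PAM and FURIN, the enzymes that mature peptide hormones and prohormones, and neither had enough reads to test. GFRAL, FLT4, NRP1, RAMP1 and RAMP2 had no usable strand, which assignment needs, so their lack of clusters is less sure.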

How the data were processed

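The members and gene lists were chosen with earlier results of these data known. Per the labels' protocols, lysates were digested with RNase I and RNase T1, at more than 1 concentration, before and after immunoprecipitation. The authors deposited raw counts per gene for 20 libraries and 1 cluster list per library. Per the submitters' processing notes, bcl2fastq 2.20.0.422, UMI-tools 1.1.1, Trimmomatic 0.30, Bowtie 0.12.7 and featureCounts 2.0.1 were used, with GRCh38.p13 and hg38; the cluster caller is not given in the sources used here. All 518 cluster sequences within RefSeq promoter windows matched GRCh38.p14.

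Tests of counts used edgeR 4.0.16 under R 4.3.3 (filterByExpr, TMM, quasi-likelihood, two-sided, Benjamini-Hochberg threshold 0.05) in fits of 9 TM and DMSO libraries, 6 arsenite and PBS libraries, and 12 for the difference of effects. CPM came from TMM over 15 libraries, and log2 values used a pseudocount of 1. The count table pairs no symbols, so lists were tested on cluster reads, a choice made after the files were seen: clusters lying in exactly 1 RefSeq protein-coding span (84.28%) were summed per gene and kept at a mean of at least 30 reads. Strand came from the promoter table or, for 1478 genes including VEGFA, from at least 90% of reads. The named genes were the members, up to 4 called list genes per direction without overlap, and the 3 genes most like each member. On simulated counts with 200 genes changed 2-fold, the test recovered 75.5% (TM 4 h, 8158 genes), 72.5% (arsenite, 6416) and 50.5% (difference of effects, 7617), and on cluster reads 23% (TM 4 h, 2719) and 42% (arsenite, 1664). Conversion and region shares were compared by exact permutation tests; the comparison with all clusters and that of regions were added after the files were seen. Alternatives were other scalings, DESeq2, no filter, blocks and each library left out. The sequence of 1 STC2 window, of a main region found in 13 libraries, is not reported here.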

Additional observations from a re-analysis of the deposited data

Results flagged for a closer look

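The 3 differences between 1 h and 4 h of TM listed here were picked because the fitted difference between the time points, which share the DMSO control, passed the threshold of the fit across all genes. On the log2 scale they were 1.775 for STC2, 1.118 for VEGFA and 1.34 for GDF15, each higher at 4 h. The genes were chosen with these values known, so they are a description. No sample was tested for lying apart from its group, since each group had 3 libraries.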

How the results depend on the processing

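The call of STC2 and GDF15 as higher after TM for 4 h held under all 16 settings with a test, while that of VEGFA was lost with the DESeq2 Wald test and without TM 4 h replicate 2 (log2 fold change 0.4543). For STC2, VEGFA and GDF15, arsenite gave no call under any of 11 settings, and TM for 1 h none under 16. With the DESeq2 Wald test the genes called were 6 for TM 1 h (46 with edgeR), 151 for TM 4 h (426), 502 for 4 h against 1 h (967), 1233 for arsenite (2310) and 854 for the difference of effects (1427). Within set S142 they were 16, 129 and 488 for the TM comparisons. With 1 library left out they ran from 13 to 51 for TM 1 h, 178 to 447 for TM 4 h and 523 to 1022 for 4 h against 1 h. For TM 1 h, STC2 was at -0.2243 and GDF15 at -0.9302 within set S142, and at -0.4857 to -0.2499 and -0.9247 to -0.4709 with 1 library left out; the difference of effects of STC2 ran from -1.428 to -1.096. The replicate numbers do not pair the libraries (correlations of deviations -0.048 to 0.026); with the replicate number as a block the fits called 43, 371, 902, 2111 and 1320 genes in the same order, STC2 was at 1.352 for TM 4 h, and of the ATF4 and CHOP list and of the other secreted factors arsenite called 0 in either direction, so the calls of ATF3, HERPUD1, SESN2, ATF4, CCN1 and EREG were not made with it.

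Differences in conversion share changed sign under some settings, and the cause was not tested. With clusters that overlap one in every library they were 0.9388 points (STC2, TM 1 h), -0.4642 (VEGFA, TM 1 h) and -0.3059 (VEGFA, TM 4 h). As a mean over clusters they were -2.562 (VEGFA, TM 1 h), -2.046 (GDF15, TM 1 h) and -2.219 (GDF15, TM 4 h). With 1 library left out they ran from -1.77 to 1.066 (STC2, TM 1 h), -2.408 to 0.4686 (STC2, arsenite), -1.016 to 0.8867 (VEGFA, TM 1 h), -0.2502 to 2.626 (VEGFA, TM 4 h), -0.7759 to 4.605 (GDF15, TM 1 h) and -3.016 to 1.134 (GDF15, arsenite). Depth limits ADM, STC1 and all IgG values.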
